A study of Danio rerio with 4 samples.

Results

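The 200 transcripts described here are the ones that znf574 mutant zebrafish larvae still expressed, but at far lower levels than their siblings of wild-type appearance. Poly(A) RNA of whole larvae was measured in 2 libraries of znf574-/- larvae and in 2 libraries of siblings that carried znf574+/+ or znf574+/-, all from crosses between znf574+/- fish kept in the AB background and all untreated. The larvae were told apart by appearance 7 days after fertilization. The sibling libraries are called wild type below, although they may hold heterozygotes. No source used here gives the number of larvae per library or ties a replicate to a clutch, so a p-value here reflects only how far these libraries differ, which may be partly technical.

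A transcript qualified when it had at least 1 TPM in all 4 libraries and at least 10 TPM in both wild-type libraries, and was not among the 150 most abundant by mean wild-type TPM. TPM is the number of transcripts of a kind per 1000000 transcripts, a scale that takes length into account. Of the 57775 transcripts listed, 6318 met these conditions. They were ranked by the lower wild-type TPM divided by the higher mutant TPM, and the 200 with the largest ratio were taken. The levels in mutant and wild-type libraries therefore chose these transcripts, and their lower level in mutants is a description that carries no test.

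The gene znf574 encodes a zinc finger protein, which the series title describes as a quality control factor for ribosome precursors that were assembled wrongly. Ribosomes are built from ribosomal RNA and many proteins in an ordered pathway, and cells remove intermediates that fail in it. A gene usually gives rise to several transcripts that share exons, so that a short read often matches more than 1 of them. The kallisto program divides such reads among the transcripts by a model, and its estimate for 1 transcript can then move without a change in the total of its gene. The files list transcripts by Ensembl identifier, and none of these identifiers was matched to a gene name in the tables used here, so the 200 are described by rank, level, length and read sharing rather than by gene function.

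Together the 200 transcripts made up 0.287% and 0.280% of all TPM in the mutant libraries, against 2.64% and 2.47% in the wild-type libraries. Their median level was 3.87 and 4.18 TPM in the mutant libraries and 35.4 and 31.8 TPM in the wild-type libraries. For all 6318 qualifying transcripts the medians were 23.2 and 21.9 TPM in the mutant libraries and 25.6 and 21.9 TPM in the wild-type libraries. The larvae were used whole, so fewer cells of a type and less RNA per cell cannot be told apart in any of these values. Library totals ranged from 31653921 to 42901442 estimated counts.

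**Figure D1:**
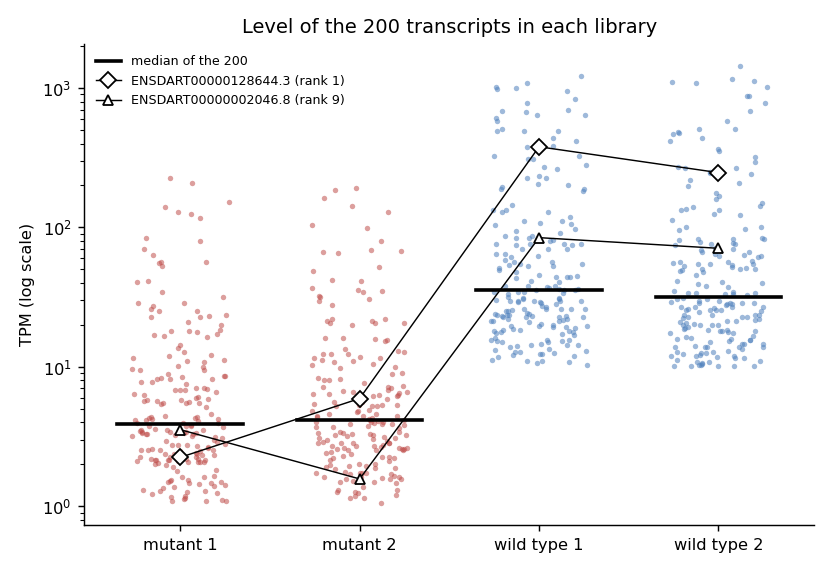
Each point is 1 of the 200 transcripts, plotted as TPM on a log scale in the mutant and wild-type libraries, with black bars at the medians. The medians were 3.87 and 4.18 TPM in mutants and 35.4 and 31.8 TPM in wild type, and the lines follow the transcripts of rank 1 and rank 9.

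The largest ratio belonged to ENSDART00000128644.3, of 861 bases. It stood at 2.24 and 5.92 TPM in the mutant libraries, against 379 and 247 TPM in the wild-type libraries. The lower wild-type value was 41.8 times the higher mutant value, and mutant replicate 2 was the higher of the mutant libraries. On average it had 4.08 ± 2.60 TPM in mutants and 313 ± 93.3 TPM in wild type (SD, n = 2 each). Its estimated counts were 60.6 and 127 in the mutant libraries and 9019 and 6485 in the wild-type libraries, and they were not whole, so some of its reads were divided with other transcripts.

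The transcript with the largest ratio among those with whole estimated counts in all 4 libraries was ENSDART00000002046.8, of 1574 bases, at rank 9. It had 180 and 63 counts in the mutant libraries and 3776 and 3491 in the wild-type libraries. On the TPM scale it stood at 3.54 and 1.57 in mutants, against 84.5 and 70.9 in wild type, a ratio of 20.01. Its whole estimates show no divided reads, although reads that match more than 1 transcript can all be assigned to 1 of them.

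The ratio declined quickly from the top of the ranking. It was at least 20 for 9 of the 200 transcripts, at least 10 for 38 and at least 5 for 118. The 50 transcripts of highest rank had a median ratio of 13.7, and the 50 of lowest rank had a median of 3.99. Over all 200 the median was 5.44. The transcript at rank 200 had a ratio of 3.70, with 3.76 and 3.41 TPM in mutants and 15.1 and 13.9 TPM in wild type. The next transcript, just outside, had a ratio of 3.68 at a far higher level, with 292 and 152 TPM in mutants and 1076 and 1464 TPM in wild type.

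The remaining expression in mutants varied widely. A mean mutant level under 2 TPM was found for 30 of the 200 transcripts and one under 5 TPM for 110. At the other end 53 kept at least 10 TPM and 14 kept at least 50 TPM. The most abundant of the 200 in wild type, at rank 132 and with 803 bases, had 208 and 185 TPM in mutants and 983 and 1444 TPM in wild type. Close to it, a transcript of 1394 bases at rank 112 had 227 and 193 TPM in mutants and 1224 and 1163 TPM in wild type, the highest mutant mean among the 200. Both had moderate ratios, and their mutant levels were above those of most qualifying transcripts. The lowest estimated count behind any value was 12.8 in mutants and 124 in wild type.

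Among qualifying transcripts, large ratios towards a lower level in mutants were commoner than ratios of the same size towards a higher one, which were taken as the lower mutant TPM divided by the higher wild-type TPM. A ratio of at least 5 was reached by 118 transcripts towards lower levels, against 15 towards higher ones. A ratio of at least 10 was reached by 38, against 2. Both mutant libraries lay below both wild-type libraries for 2764 of the 6318, or 43.7%, and above them for 1824, or 28.9%. The floor of 10 TPM applied to wild type and not to mutants, which left out transcripts raised from a lower wild-type level. This favours the lower direction, and these numbers describe only transcripts with at least 10 TPM in wild type. Over all 39773 transcripts tested, edgeR's quasi-likelihood F test called 10.2% lower and 9.5% higher at an adjusted p under 0.05.

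**Figure D2:**
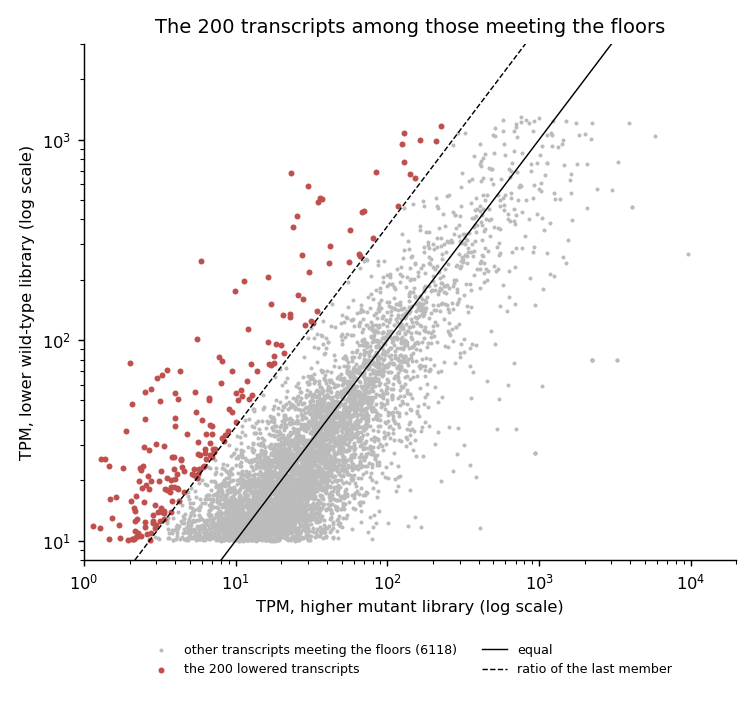
Each point is 1 of the 6318 qualifying transcripts, with the higher mutant TPM on the horizontal axis and the lower wild-type TPM on the vertical axis, both on log scales. The 200 transcripts lie above the dashed line, which marks the ratio of 3.70 at rank 200.

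In the test across all transcripts, 190 of the 200 were called lower in mutants (edgeR's quasi-likelihood F test, with p adjusted after Benjamini and Hochberg under 0.05). Of the 39773 transcripts tested 10.2% were called lower, and of the 6318 qualifying ones 25.7%. The rule used the same contrast, so the number called is no evidence about the 200. Their median edgeR log2 fold change was -3.12, beside -0.01 over all transcripts tested and -0.33 over the qualifying ones. DESeq2 called 197 of the 200 lower, beside 14.5% of all tested. Without wild-type replicate 1 or wild-type replicate 2 edgeR called 0 of the 200, with 189 and 188 at an unadjusted p under 0.05, whereas DESeq2 then called 190 and 188, beside 5.05% and 4.78% of all tested.

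The 10 transcripts that edgeR did not call lower were among the 34 of the 200 that differed by more than 2-fold between the mutant libraries; the other 24 of these were called. Of the 10, 3 also differed by more than 2-fold between the wild-type libraries. Their edgeR adjusted p ranged from 0.050 to 0.26. The widest gap, of 117-fold, was at rank 84: a transcript of 823 bases with 1.39 TPM in mutant replicate 1 and 163 TPM in mutant replicate 2, against 996 and 1123 TPM in wild type. At rank 131 a transcript of 501 bases had 1.34 and 19.8 TPM in mutants and 94.0 and 101 TPM in wild type. In both cases mutant replicate 2 was closer to wild type.

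Disagreement between the mutant libraries was a wider property of the 200. The median absolute log2 difference in TPM between the mutant libraries was 0.37, beside 0.24 for all qualifying transcripts. Between the wild-type libraries it was 0.21, beside 0.23. A gap of more than 2-fold between the mutant libraries was found for 34 of the 200, or 17.0%, beside 7.28% of the qualifying transcripts. Between the wild-type libraries such a gap was found for 7 of the 200, or 3.5%, beside 1.41% of the qualifying transcripts. In 24 of the 34, or 70.6%, mutant replicate 2 held the higher level, a share near the 71.3% (328 of 460) over all qualifying transcripts. The rule ranked by the higher mutant and the lower wild-type value. The other mutant value could therefore lie far lower, down to 1 TPM, and the other wild-type value far higher. The part of this in the gaps was not tested. Counts in mutants were also lower, with medians of 181 and 173 in the mutant libraries against 1534 and 1460 in the wild-type libraries, and the part of counting error in these gaps was not tested.

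The same rule was also applied to 1 mutant and 1 wild-type library, and the other 2 libraries were read afterwards. Libraries of a genotype are not tied to separate clutches, so this shows recurrence between libraries only. Each choice gave its own list of 200, which shared between 77 and 123 transcripts with the 200 described above. Every library took part in choosing the 200 described above, so the values below describe these other lists and do not test those 200. The floors applied only to the libraries used, so a listed transcript could stand at 0 in an unused one. Chosen on mutant replicate 2 and wild-type replicate 2, the listed transcripts had a median ratio of wild-type to mutant TPM of 10.0 there. In mutant replicate 1 and wild-type replicate 1, which were not used, their median ratio was 9.82, and 192 of 200 were lower in the mutant library, beside 60.8% of the 6643 transcripts that qualified. Chosen on mutant replicate 2 and wild-type replicate 1, 197 of 200 were lower in the unused mutant library, beside 49.9%, with a median ratio of 8.86.

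The lists chosen on mutant replicate 1 had lower median ratios in the unused libraries. With wild-type replicate 1 the median ratio was 16.2 in the libraries used and 3.68 in the unused ones, and 174 of 200 were lower in mutant replicate 2, beside 51.8% of the qualifying transcripts. With wild-type replicate 2 the medians were 12.6 and 5.53, and 192 of 200 were lower, beside 65.3%. The part of picking extreme values in single libraries in these lower medians was not tested. A ratio of at least 2 in the unused libraries was kept by 125 and 158 of the 200 chosen on mutant replicate 1, beside 13.7% and 18.6% of qualifying transcripts. It was kept by 187 and 181 of those chosen on mutant replicate 2, beside 17.4% and 21.2%. Transcripts picked as low in mutant replicate 1 were thus often less low in mutant replicate 2. Among all qualifying transcripts, too, mutant replicate 2 held the higher level in most of the wide gaps. Counting gaps of any size, mutant replicate 2 had the lower TPM for 63.8% of qualifying transcripts and 57.5% of the 200.

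**Figure D3:**
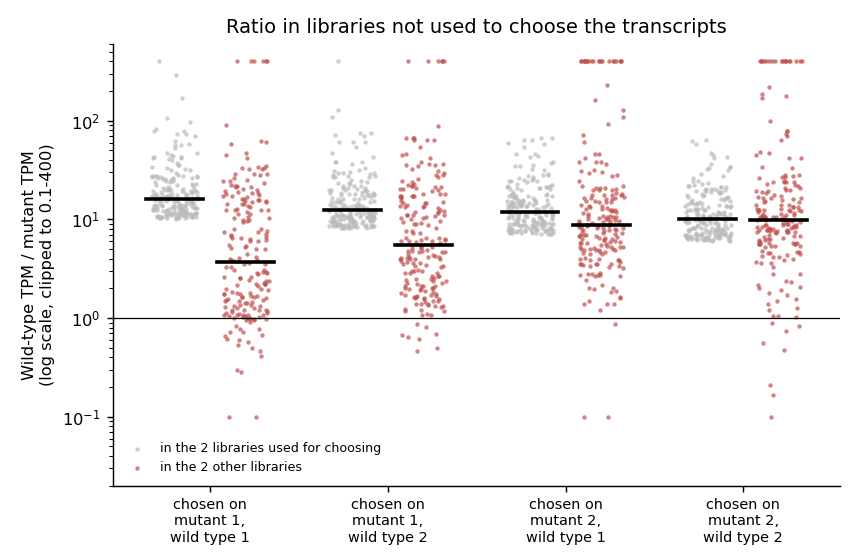
For each choice of 1 mutant and 1 wild-type library, points show the ratio of wild-type to mutant TPM of the 200 transcripts chosen, in the libraries used (grey) and in the other 2 libraries (red), on a log scale with bars at the medians; values beyond the limits, including transcripts at 0 in the mutant library read, are drawn at them. The medians in the unused libraries were 3.68 and 5.53 when mutant replicate 1 was used and 8.86 and 9.82 when mutant replicate 2 was used.

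Length played no part in the rule. The 200 transcripts were short, with a median of 1050 bases, beside 1616 bases for all qualifying transcripts. As a counterpart, the 200 qualifying transcripts with the largest ratio in the opposite direction, called the 200 raised transcripts here, had a median of 1648 bases. Their ratio ran from 2.02 to 18.6, a weaker change than that of the lowered ones. Of the lowered transcripts 95 had up to 1000 bases, or 47.5%, beside 31.0% of the raised and 27.8% of the qualifying transcripts. Lengths above 2000 bases were found for 44 of the lowered transcripts, or 22%, beside 37.0% of the raised and 37.1% of the qualifying ones. All qualifying transcripts with both mutant libraries below both wild-type libraries, the 200 among them, had a median of 1491 bases. Those with both mutant libraries above had a median of 1794 bases.

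Most of the excess lay in 1 length class. Of the lowered transcripts 82 had 501 to 1000 bases, 41.0%, beside 25% of the raised and 23.0% of the qualifying transcripts. Among transcripts of up to 500 bases the shares were closer, at 6.5% of the lowered, 6.0% of the raised and 4.86% of the qualifying transcripts. Within the 200 the ratio was not ordered by length: the median was 1162 bases in the 50 of highest rank and 1102 in the 50 of lowest rank. As a description, Spearman's rho between ratio and length was -0.01 across the 200 and -0.10 across all qualifying transcripts.

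**Figure D4:**
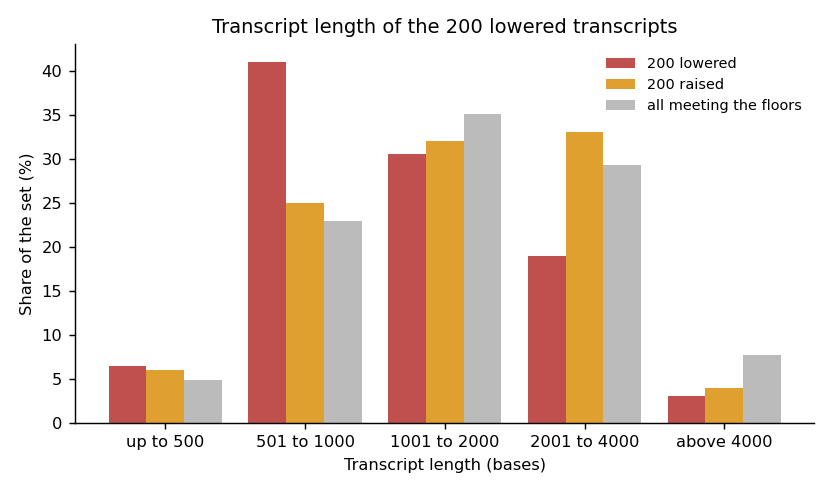
Bars give the share of each set in percent that falls into each class of transcript length in bases, for the 200 lowered transcripts, the 200 raised transcripts and all 6318 that qualified. The class of 501 to 1000 bases held 41.0% of the lowered, 25% of the raised and 23.0% of all qualifying transcripts.

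Shorter transcripts were also more abundant, so length was compared within classes of mean wild-type level. From 10 to 20 TPM the 53 lowered transcripts had a median of 1528 bases, beside 1887 for the qualifying ones. From 20 to 50 TPM the 65 lowered transcripts had 1018 bases, beside 1563. From 50 to 100 TPM the 35 lowered transcripts had 1071 bases, beside 1440, and at 100 TPM and above the 47 lowered transcripts had 865 bases, beside 1103. The lowered transcripts had a shorter median than the qualifying ones in each of these 4 classes. The raised transcripts had medians of 1963.5, 1543, 1029.5 and 1165 bases in the same order. From 50 to 100 TPM the raised transcripts were thus also short, with a median slightly below that of the lowered ones. The lowered transcripts made up a growing part of the qualifying ones with level. Their part was 2.04% from 10 to 20 TPM, 2.89% from 20 to 50 TPM, 4.81% from 50 to 100 TPM and 6.25% at 100 TPM and above. Level enters the rule here, since a transcript at 10 TPM reaches the floor of 1 TPM sooner than one at 100 TPM. With each library's trend with length removed in edgeR, a setting added after the data were seen, the median log2 fold change of the 200 was -3.02. The choice of the 200 goes far to fix this value, so it does not bear on their short lengths. The part of a trend with length in those was not tested.

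Read sharing was the other property that the rule did not use. Whether an estimate is whole can be judged below 10000 counts, which held in all 4 libraries for 173 of the 200 transcripts. Of these, 31 had whole counts in every library, 17.9%, beside 20.3% of the qualifying transcripts that could be judged. Division of reads was therefore about as common among the lowered transcripts as in the background. The 31 with whole counts had ratios of 3.75 to 20.01, with a median of 7.05, and the 142 with divided counts had a median ratio of 5.08. All 31 were called lower by edgeR, beside 24.1% of the 1186 qualifying transcripts with whole counts; the rule used this contrast.

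Some of the whole ones had close replicates, at different levels. At rank 22 a transcript of 580 bases had 23.7 and 21.3 TPM in mutants and 384 and 366 TPM in wild type. At rank 13 a transcript of 940 bases had 1.38 and 1.19 TPM in mutants and 25.5 and 25.7 TPM in wild type. Only 1 of the 31 whole transcripts, the one at rank 9 named above, differed by more than 2-fold between the mutant libraries. Such a gap was found for 27 of the 142 divided ones and 6 of the 27 that could not be judged. Over all qualifying transcripts these numbers were 5 of 1186, 400 of 4656 and 55 of 476. Wide gaps between the mutant libraries were thus rarer for whole estimates than for divided ones or those not judged, in the 200 and in the background.

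For transcripts with divided reads, the partner could in some cases be read from the estimates themselves. When 2 transcripts share reads with each other and with no other transcript, their estimates add up to a whole number in every library. A search for transcripts whose decimals complement each other in all 4 libraries found exactly 1 partner for 22 of the 142 divided transcripts, 15.5%, beside 18.5% of the 4656 divided ones among all that qualified. The same search for sums ending in 0.5, which sharing would not produce, found a partner for 0 of the 142 and for 8 of the 4656. The partners had no part in the rule, although they share reads with a transcript that had.

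The sum of both transcripts was lower in mutants in most pairs, in many of them with a smaller ratio than the lowered transcript alone. Summed TPM lay lower in both mutant libraries than in both wild-type libraries in 21 of the 22 pairs and higher in 1. Over the 862 qualifying transcripts with a partner the sums were lower in 41.5% and higher in 29.6%. Each sum contains the transcript chosen for its low mutant level, which goes far to fix this direction. The median ratio of the sums, lower wild-type over higher mutant value, was 4.01, beside 5.26 for the 22 lowered transcripts alone. In 12 pairs the sum had a ratio at or above that of rank 200, and in 4 it was below 2. Of the partners taken alone, 12 were lower in both mutant libraries, 5 were higher and 5 overlapped. The partners at ranks 94 and 98, both among the higher ones, stayed below 1 TPM in every library. So did the partner at rank 143, which overlapped. Among partners of all qualifying transcripts 32.8% were lower and 27.5% higher.

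In the edgeR test across all transcripts 19 of the 22 partners were tested, and 7 were called lower and 2 higher in mutants (adjusted p under 0.05). Over all transcripts tested 10.2% were called lower and 9.5% higher, and over the 793 partners of qualifying transcripts that were tested 13.5% and 7.06%. Without wild-type replicate 1, and likewise without wild-type replicate 2, edgeR called 0 transcripts of the whole table. With 19 partners, a difference from the background was not tested.

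Some pairs were lower in mutants as a whole. At rank 2 a transcript of 2345 bases had 2.0 and 1.24 TPM in mutants and 83.8 and 76.7 TPM in wild type, and its partner of 1029 bases had 0.396 and 0.147 TPM in mutants and 8.43 and 7.22 TPM in wild type. The pair together had 166 and 79 counts in the mutant libraries and 5881 and 5922 in the wild-type libraries. The lowered transcript took 92.2% and 95.2% of the pair's counts in mutants and 95.9% and 96.1% in wild type, so its share differed little while the sum was far lower in mutants.

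Other pairs kept more of their sum. At rank 142 a transcript of 693 bases took 1.35% and 1.62% of its pair's counts in mutants, against 5.34% and 6.70% in wild type. Its partner of 3331 bases stood at 85.7 and 74.2 TPM in mutants and 99.8 and 83.0 TPM in wild type, values that overlap. The summed TPM was 91.7 and 80.5 in the mutant libraries and 128 and 113 in the wild-type ones, a ratio of 1.24. At rank 123 a transcript of 628 bases took 16.3% and 12.9% of the pair's counts in mutants, against 66.3% and 66.9% in wild type, while its partner of 1133 bases had 19.2 and 18.9 TPM in mutants and 10.2 and 9.0 TPM in wild type.

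In 1 pair the sum was higher in mutants. The transcript at rank 42, of 332 bases, had 2.42 and 2.46 TPM in mutants and 23.8 and 23.6 TPM in wild type. Its partner ENSDART00000123053.4, of 613 bases, named after its values were seen, had 117 and 105 TPM in mutants and 30.2 and 23.7 TPM in wild type. It was higher in mutants with an edgeR log2 fold change of 1.86 (edgeR adjusted p = 0.0092, n = 2 libraries per group). This partner was singled out because the sum of its pair was higher, so its p-value is that of a chosen transcript. With the replicate number as a term in the model the edgeR adjusted p was 0.063, and with a crossed numbering it was 0.024. Leaving out wild-type replicate 1 gave an edgeR adjusted p of 0.10 and leaving out wild-type replicate 2 one of 0.11, with fold changes of 1.90 and 1.84 on the log2 scale. The pair held 2216 and 1569 counts in the mutant libraries and 696 and 646 in the wild-type libraries. The low mutant level of the transcript at rank 42 therefore stood beside a higher total for the reads of the pair.

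Within the pairs, the lowered transcript usually took a smaller share in mutants. Its share of the pair's counts was lower in both mutant libraries than in both wild-type libraries in 16 of the 22 pairs and higher in 1. Among the 862 qualifying transcripts with a partner the share was lower in 32.3% and higher in 26.6%. The rule favours this direction, since a transcript chosen for a low level in mutants tends to have a low share there. For the 18 raised transcripts with a partner the share was lower in 4 pairs and higher in 11.

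**Figure D5:**
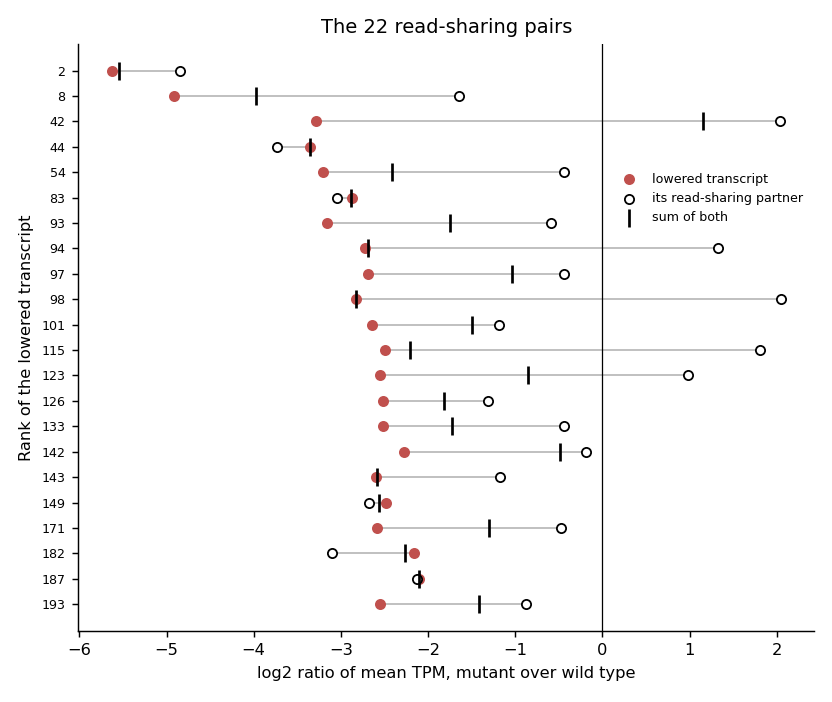
Each row is 1 of the 22 pairs, labelled by the rank of the lowered transcript, with the log2 ratio of mean TPM in mutant over wild type on the horizontal axis for the lowered transcript (red), its partner (open) and their sum (bar). The sum lies left of 0 in every pair except that of rank 42.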

How the data were processed

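The tools named in the submitters' processing notes are bcl2fastq 2.20, kallisto 0.46.0 for the estimates per transcript, and DESeq2 2.11.40; GRCz11 and danRer11 are the builds named, and the annotation release is not given in the sources used here. Per the labels' protocols, libraries were made with a stranded mRNA kit. The authors deposited estimated counts, which are not normalized, and TPM values for each transcript and library. Effective lengths were the same in the 4 tables.

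Estimated counts were rounded and tested with edgeR 4.0.16 in R 4.3.3 (filterByExpr with minimum count 10 and minimum total 15, TMM, quasi-likelihood F test, group as the only term, Benjamini-Hochberg adjustment over 39773 transcripts). All 200 transcripts and all 6318 that qualified passed this filter. DESeq2 1.42.0 and limma 3.58.1 were alternatives, and the fit was tested on simulated data. An estimate was called whole within 0.005 counts. Estimates are deposited to 6 significant digits, so partners were accepted when the decimals of both summed to a whole number within their rounding plus 0.002 counts in all 4 libraries, with both divided in at least 3. The rule for naming was the transcript of largest ratio and that of largest ratio with whole counts. None of the transcript identifiers matched the 29201 gene identifiers of the name table, so the gene lists prepared were not used. The 200 transcripts, the lists and the tests were chosen with earlier results of these data known.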

Additional observations from a re-analysis of the deposited data

How the results depend on the processing

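The number of changed transcripts over the whole table, 7848 in edgeR, ranged from 0 to 7448 with 1 library left out, and was 4761 and 4653 in DESeq2 without wild-type replicate 1 or 2. The edgeR calls among the 200, 190 with all libraries, ranged from 0 to 191 with 1 library left out, the 0 arising without either wild-type library; the cause was not tested. No label ties the replicate numbers to a clutch, and deviations of same-numbered libraries correlated at -0.122 across transcripts. With the replicate block edgeR called 0 transcripts and 0 of the 200, with 195 of them at an unadjusted p under 0.05 and lower. A crossed replicate block gave 2779 rises and 3120 falls, with 172 of the 200 called lower. The median log2 fold change of the 200 was -2.66 in limma on log2(TPM + 1), whose added 1 shrinks the changes of low levels by construction, and moved by less than the spread between replicates in the other settings. The 200 depended most on mutant replicate 2: with 1 library left out of the rule 90 to 176 of them were chosen again, 90 without mutant replicate 2 and 130 without mutant replicate 1. With 1 mutant and 1 wild-type library 77, 87, 115 and 123 were. Other floors, no limit on abundance, a ratio of means or another scaling kept between 136 and 194. As a share of counts in place of TPM the 200 took 0.246% in mutants and 2.36% in wild type. Depth left mutant levels resting on as few as 12.8 counts.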
